A study of Mus musculus with 36 samples.

Results

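The heart of the mouse at E19.5, the last fetal day sampled, was compared with the heart of the young adult mouse at 10 weeks of age, by the function of the genes measured. The comparison set 3 arrays of each stage against each other, 6 of the 36 arrays of the study. All were from hearts of OF1 (Oncins France 1) mice with no treatment or engineered allele. The spread behind each standard error (SE) and p-value was estimated from all 36 arrays. At each stage 3 arrays were labelled female, male and mixed, and the methods name 3 pups, each in its own tube, as the biological replicates of a stage. Per the methods the mixed replicate held hearts of both sexes. Their number was not given in the sources used here, so the spread between the 3 arrays may not be that between single hearts. All 20701 genes with a gene identifier were measured, each through 1 probe set of an Affymetrix Mouse430 2.0 array, and values are log2 array signals, so that a difference of 1 is a 2-fold change. These arrays hold 3′ probes and whole hearts were used, so fewer cells of a type and less RNA per cell cannot be told apart in any result below.

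At birth the heart moves from the low-oxygen, glucose- and lactate-fed circulation of the fetus to one that supplies oxygen and fat. In the weeks that follow, heart muscle cells leave the cell cycle and grow by enlargement, exchange fetal for adult forms of contractile proteins, and draw most of their energy from fatty acid oxidation in the mitochondria. The matrix around them stiffens and is remodelled by fibroblasts, and resident immune cells settle in the tissue while the animal meets microbes for the first time. Both stages here stand on either side of that period, and no array used here lies within it.

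The arrays fitted their labels in the checks that could be made. The extraction text of the labels speaks of liver tissue, whereas 12 of 14 liver markers stayed under 5 on all 6 arrays and the mean of Alb, which encodes serum albumin, was 3.74 at E19.5 and 4.05 in the young adult. Of the 9 heart muscle markers measured, none was under 5 on all 6 arrays. The E19.5 female and male arrays correlated more closely with each other (Pearson's r = 0.9896 across probe sets, which are not independent replicates) than either did with the mixed array (0.9769 and 0.979). A technical measure also moved with stage. The difference between the 3′ and 5′ control probe sets of Gapdh was 3.72 to 4.13 at E19.5 and 1.39 to 2.25 in the young adult, and that of Actb was 3.94 to 4.19 and 2.74 to 2.91. Since every fetal array lay above every adult array in this measure, it cannot be told apart from stage by the design, and counts are also given with it added to the model as a covariate, in the plot of the shares for the 27 lists and in the text for many of them.

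Of the 20701 genes, 174 were higher in the young adult under the study's limits (adjusted p under 1e-05, a change above 4-fold, and a mean above 5 at 1 stage or more), which is 0.841% of genes, and 182 were lower, or 0.879%. Under wider limits (adjusted p under 0.05, a change above 2-fold, and a mean above 5 at E19.5 or in the young adult) 835 genes were higher, 4.03% of all genes, and 1112 were lower, 5.37%. Among the 9241 genes whose mean over the 6 arrays was above 5, the shares were 7.61% and 10.2%. With the control difference as a covariate 647 of all genes were higher and 852 lower under the 2-fold limits. That fit thus called fewer genes in general. All p-values are from limma with Benjamini-Hochberg adjustment over all 45101 probe sets, and below "rose" and "fell" refer to the 2-fold limits. The balance of the directions depended on the scaling. Probe sets with a mean above 5 had a median 0.18 lower in the young adult, and with the arrays centred on that median 1189 genes were higher and 814 lower, 59.4% higher in place of 42.9%, and under the study's limits 239 and 139, 63.2% in place of 48.9%. The arrays of both stages did not overlap for all 356 genes past the study's limits, against 36.5% of all genes. Of the 174 higher genes 105 had an E19.5 mean of 5 or less, and of the 182 lower genes 125 had a young adult mean of 5 or less, so a large part of these genes was near background on one side. Lists of genes by function were drawn up for 27 subjects, and 117 of the 356 genes were in 1 or more of them. Earlier results of these data were known when the lists were made, so their shares are a description and not a test.

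**Figure D1:**
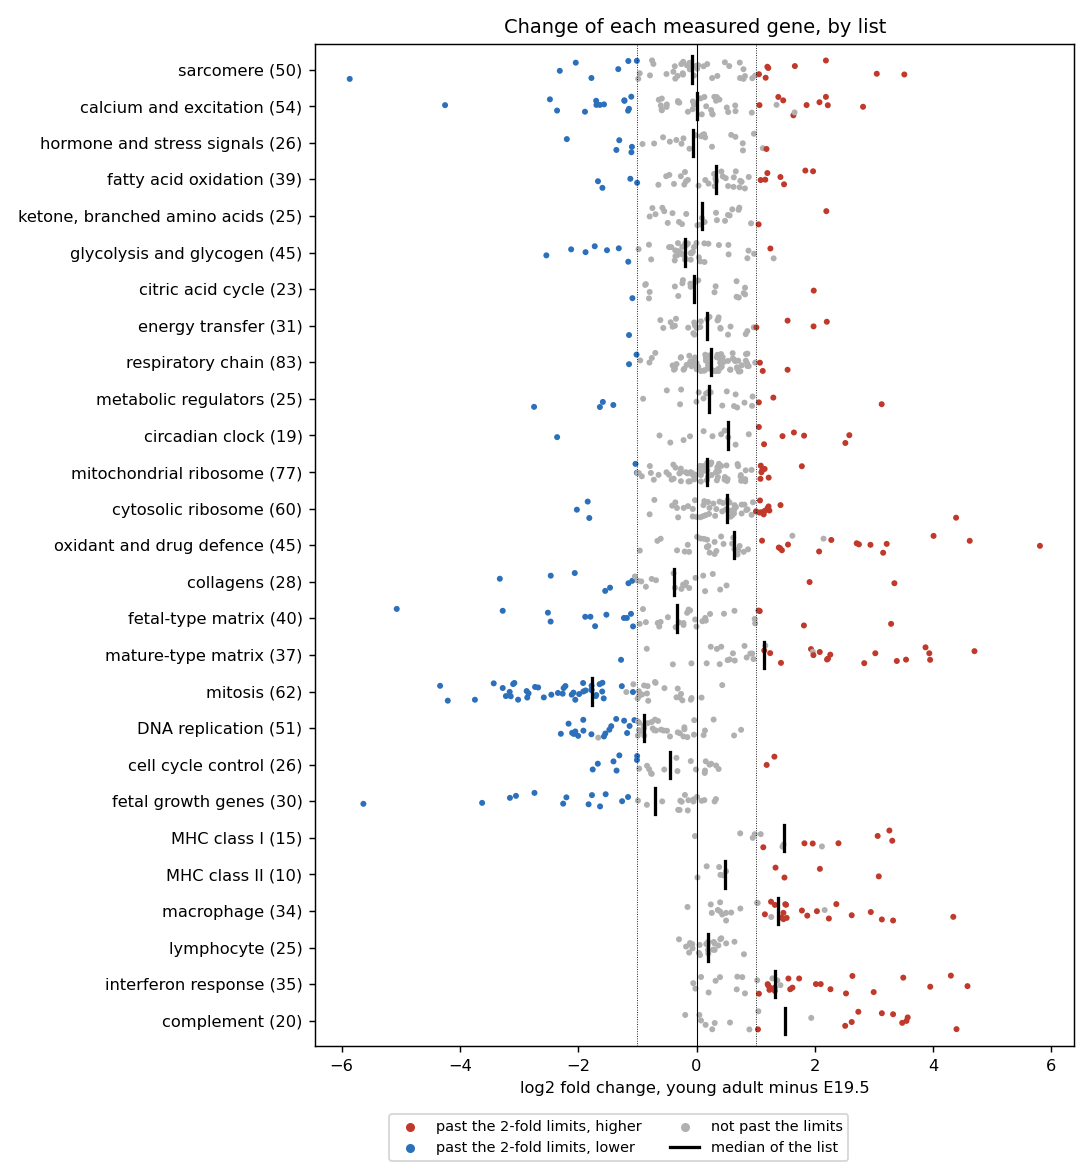
Log2 fold change from E19.5 to the young adult of every measured gene in the 27 lists, with the number of genes measured in parentheses. Each point is 1 gene, coloured where it passed the 2-fold limits, the bar is the list's median and the dotted lines mark a 2-fold change. The mitosis list lies almost wholly to the left, with a median of -1.77, and the macrophage, complement and interferon lists lie to the right.

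The 12 genes with the largest falls were of several kinds. Tnni1, slow skeletal troponin I, the fetal form of the troponin subunit that restrains contraction, was 10.28, 10.43 and 8.93 on the female, male and mixed arrays at E19.5 and 4.0, 4.23 and 3.82 in the young adult. This was the deepest fall of any gene past the study's limits, 58.2-fold (log2 -5.86, SE 0.32, adjusted p = 4.3e-15), and the mixed array was the lowest at E19.5. H19, an imprinted non-coding RNA of fetal tissues, fell 49.6-fold, and Fbn2, which encodes fibrillin-2 of fetal elastic fibres, fell 33.6-fold. Cks2, a cyclin-dependent kinase subunit, Kcne1, a potassium channel subunit, and Cdca8, which encodes borealin of the chromosomal passenger complex, fell by 4.34, 4.25 and 4.21 on the log2 scale. The other lowest genes were Tmem255a (-5.15), 2900092N22Rik (-4.27), Bex1 (-4.12), Nrk (-4.06), Snap91 (-4.02) and Tox3 (-3.96), none of which was in a list. Bex1 and Tox3 had no other probe set. The other probe set of 2900092N22Rik gave -0.07 and that of Snap91 -2.49. Those of Tmem255a all fell less than the probe set used, and those of Nrk lay on both sides of its value. For these genes the size of the fall thus depends on the probe set.

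Several of the 12 genes with the largest gains encode enzymes. Ces1d, a carboxylesterase that hydrolyses lipid esters and drugs, was 1.8, 1.89 and 2.18 on the 3 E19.5 arrays and 7.98, 7.35 and 7.96 in the young adult, a 56.0-fold gain (log2 5.81, SE 0.17, adjusted p = 1.8e-21). AW112010, an interferon-inducible transcript, rose by 5.06, and Art1, an ADP-ribosyltransferase, by 5.01. Like Ces1d, both left the background range, since their E19.5 arrays were all under 5. Comp (4.70), Thrsp (4.64), Aldh1a1 (4.62), Gbp2 (4.58), Scd1 (4.53), Xdh (4.5) and Cfd (4.40) followed, with the transcript Plet1os (4.71). The other probe sets of Ces1d gave 2.03 and 4.08. Those of Thrsp, a lipogenic gene, gave -0.03 and 2.37, those of Art1 0.26 and 1.62 and that of Scd1 0.65. The size of these gains thus depends on the probe set. The gain of Mela, 4.72, came from a probe set that can match several sequences, and its young adult arrays ranged from 9.74 to 13.32.

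Cell division was the function with the largest share of lowered genes. Of 62 mitosis and kinetochore genes measured, 40 fell and none rose, 64.5% against 5.37% of all genes, and 25 passed the study's limits. Cks2 was 9.93, 9.74 and 10.11 at E19.5 and 5.90, 5.46 and 5.41 in the young adult, 20.2-fold lower (SE 0.14, adjusted p = 1.2e-20). Cdca8 was 8.39, 8.47 and 7.90 at E19.5 against 3.88, 4.64 and 3.62 in the young adult. The stages were thus far apart for both genes, with the young adult Cdca8 in the background range. Ect2, which activates the small GTPase that closes the cleavage furrow, fell by 3.75, Kif20b, a kinesin of cytokinesis, by 3.43, and Cenpk, a centromere protein, by 3.28. The median of the 62 genes was -1.77, against 0.058 over all genes, and it lay between -1.86 and -1.70 when any 1 of the 6 arrays was left out. With the control difference as a covariate 43 of the genes were lower.

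The replication machinery changed in the same direction at smaller size. Of 51 DNA replication genes 18 fell and none rose, 35.3% lower against 5.37% of all genes, with a median of -0.89. With the covariate 20 fell. Cdt1, which licenses replication origins, was 8.49, 8.33 and 8.59 at E19.5 and 6.02, 6.32 and 6.19 in the young adult (log2 -2.29, SE 0.14, adjusted p = 4.9e-14). Chek1, the checkpoint kinase, fell by 2.16, E2f8, a repressor of the E2F family, by 2.10, Rfc4, a clamp loader subunit, by 2.08, and Rrm2, the small subunit of ribonucleotide reductase, by 2.05. Several of these genes had other probe sets with changes near 0, so their size depends on the probe set: those of Chek1 lay between -0.81 and 0.68.

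Among 26 regulators of the cell cycle the picture was mixed, with 7 lower and 2 higher and a median of -0.44. These were 26.9% and 7.69%, against 5.37% and 4.03% of all genes and 10.2% and 7.61% of those with a mean above 5. The share that rose was thus near that of such genes. Rbl1, the pocket protein p107, fell by 1.76. The homeobox genes Meis2 and Meis1, the latter known for its part in cell cycle arrest of heart muscle after birth, were both lower in the young adult, by 1.67 and 1.40, and Cdk4, a kinase of the G1 phase, by 1.35. The 2 that rose were Ccng1, a p53-induced cyclin, by 1.32, and Gadd45a, a stress-induced growth arrest gene, by 1.19.

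Promoter sequence is shown for a pair of mitosis genes because 40 of the 62 genes fell and their promoters share letters that the list was not built on. Windows of 300 bases, from 250 before to 50 after the RefSeq start site in build GRCm38.p6, were available for 14452 of the 20701 genes, 1 window a gene. Letters were searched on both strands. The cell cycle genes homology region (CHR), TTTGAA, was in 27 of the 36 lowered mitosis genes with a window, 75.0%, and in 13.3% of all windows. The CCAAT box was in 29 of the 36, 80.6%, against 38.2%, and both were in 24 of the 36, 66.7%, against 5.35% of all windows and 9.79% of the windows of all lowered genes. Over the 52 mitosis genes measured and with a window, called or not, 30 held both, 57.7%. The windows of Cdca8 and of Aspm, a spindle pole protein that fell by 3.22, are printed 5′ to 3′ in the direction of transcription, with TTTGAA and CCAAT or their reverse complements in capitals; both were chosen after their values were seen.
Cdca8, chr4:124936868-124937167, minus strand: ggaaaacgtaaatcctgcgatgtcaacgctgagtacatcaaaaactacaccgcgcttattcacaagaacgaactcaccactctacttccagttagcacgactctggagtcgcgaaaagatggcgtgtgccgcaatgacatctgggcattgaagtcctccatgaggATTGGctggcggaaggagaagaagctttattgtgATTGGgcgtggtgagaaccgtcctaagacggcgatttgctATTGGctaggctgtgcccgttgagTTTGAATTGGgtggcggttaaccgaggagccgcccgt
Aspm, chr1:139454523-139454822, plus strand: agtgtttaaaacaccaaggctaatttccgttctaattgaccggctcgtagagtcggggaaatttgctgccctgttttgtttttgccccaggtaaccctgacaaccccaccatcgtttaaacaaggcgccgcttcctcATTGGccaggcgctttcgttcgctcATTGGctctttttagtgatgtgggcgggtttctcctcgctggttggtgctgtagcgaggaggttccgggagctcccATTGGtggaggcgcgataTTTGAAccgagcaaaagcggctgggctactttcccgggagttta
Cdca8 holds 1 CHR match and 4 CCAAT matches, and Aspm 1 and 3. The letters describe the windows and are not sites of binding. Of the 41 DNA replication genes with a window, 6 held the E2F form TTTCGCGC, 14.6% against 0.505% of all windows, and 8 held TTTGGCGC, 19.5% against 0.837%.

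**Figure D2:**
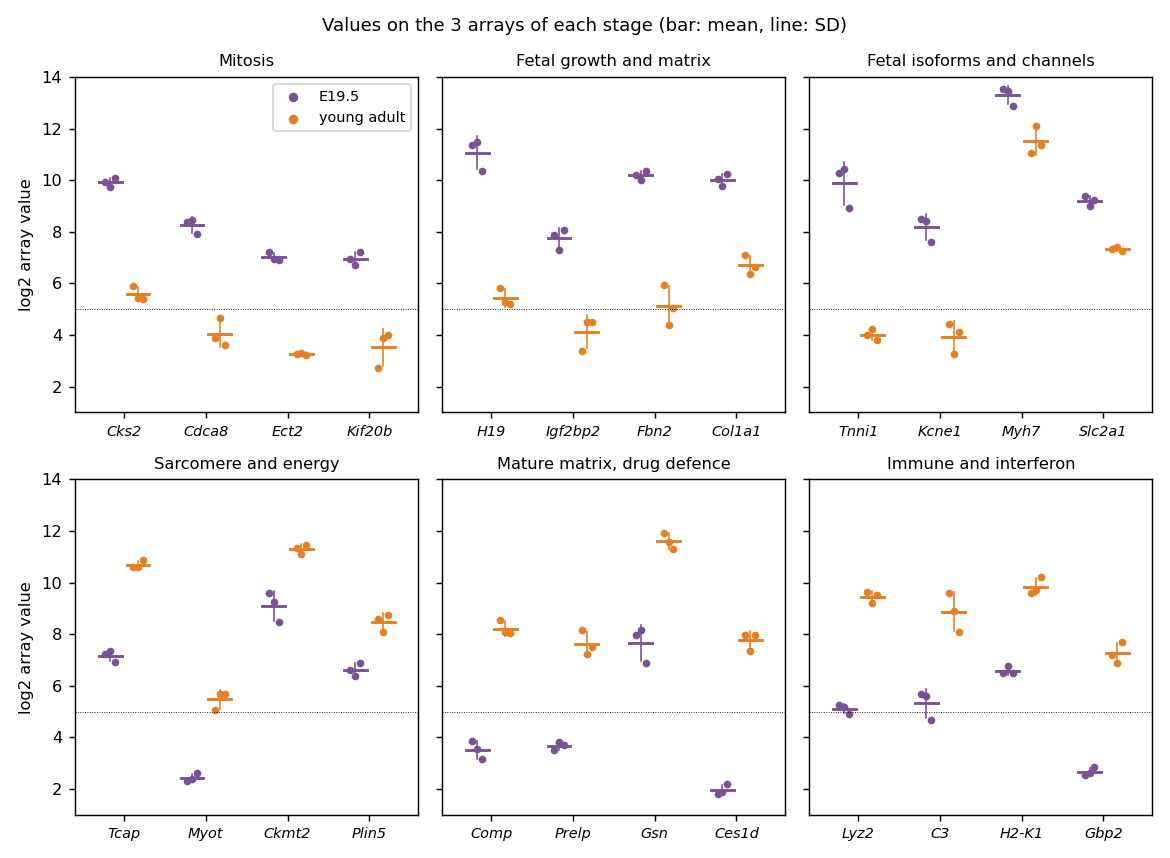
Log2 array values of 24 genes on the 3 arrays of each stage, with the mean as a bar and the SD as a line. The dotted line is the expression limit of 5, below which values are near background. The stages do not overlap in any of the 24 genes shown, and the E19.5 mixed array is the lowest of its stage in Tnni1, at 8.93 against 10.28 and 10.43.

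Genes of fetal growth, most of them imprinted, also fell and none rose. Of 30 measured, 13 were lower, 43.3% against 5.37% of all genes, 7 of them under the study's limits, and the median was -0.71. H19 was 11.39, 11.49 and 10.35 at E19.5 and 5.83, 5.27 and 5.22 in the young adult. Igf2, the fetal growth factor from the same imprinted region, was 10.53, 10.53 and 9.54 at E19.5 and 7.88, 7.34 and 7.17 in the young adult, 6.68-fold lower (adjusted p = 1e-09). Igf2bp2, an RNA-binding protein of fetal growth, fell by 3.63, and the imprinted genes Mest and Peg3 by 3.16 and 3.05. The receptor that clears IGF2, Igf2r, belonged to the hormone list and fell by 2.19. In that list of 26 genes 5 were lower and 1 was higher, 19.2% and 3.85% against 5.37% and 4.03% of all genes. Erbb2, the neuregulin co-receptor, fell by 1.36 and Ednra, an endothelin receptor, by 1.31. Adrb1, the main beta-adrenergic receptor of heart muscle, fell by 1.10 and Insr, the insulin receptor, by 1.09. Nr3c2, the mineralocorticoid receptor, rose by 1.18.

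Sarcomere genes changed one by one and not as a group. Of 50 measured 8 rose and 7 fell, with a median of -0.08 that became 0.11 with the arrays centred. The shares were 16.0% and 14.0%, against 4.03% and 5.37% of all genes and 7.61% and 10.2% of those with a mean above 5. Tcap, which encodes telethonin at the Z-disc end of titin, was 7.24, 7.37 and 6.92 at E19.5 and 10.60, 10.61 and 10.86 in the young adult (log2 3.51, SE 0.20, adjusted p = 4.6e-15). Myot, the Z-disc protein myotilin, rose from 2.29, 2.38 and 2.62 to 5.05, 5.70 and 5.69, just over the expression limit. Acta1, skeletal alpha-actin, rose by 2.19, with young adult arrays between 8.75 and 10.59; with the control difference as a covariate it was no longer called. Of 14 skeletal muscle markers 12 were under 5 on all 6 arrays, and the summed level of the list overlapped between stages. Beside Tnni1, the list's falls included Obsl1, an obscurin-like linker (-2.31), and Myh7, the beta-myosin heavy chain that predominates in the fetal mouse ventricle. Myh7 was 13.53, 13.46 and 12.89 at E19.5 and 11.05, 12.11 and 11.39 in the young adult, a 3.43-fold fall (adjusted p = 7.8e-07). Markers of heart muscle in general were lower in sum, 15.39 to 15.46 at E19.5 and 15.05 to 15.17 in the young adult (log2 of the summed signals). Of the 9 measured 2 fell, 22.2%: Nkx2-5, a transcription factor of heart muscle, by 1.72 and Ryr2, the calcium release channel, by 1.16.

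Forms of the same protein that replace each other were compared as the log2 ratio of the late to the early form within each array, since a change in that balance does not depend on the array's scale. Of 15 pairs 13 were measured, and the ratio rose in 11, in 7 of them with no overlap between stages. A rise of the ratio need not be a rise of the late form: Fbn1, Hk2 and Eno3 themselves changed by -0.84, -0.15 and -0.06. The shift was 6.22 for Tnni3 over Tnni1, 4.23 for Fbn1 over Fbn2, 2.25 for the glucose transporters Slc2a4 over Slc2a1, 1.51 for the cytochrome oxidase subunits Cox6a2 over Cox6a1 and 1.17 for the hexokinases Hk2 over Hk1. In 5 pairs the early form fell past the 2-fold limits, and no late form passed them. Tnni3, cardiac troponin I, was 11.98, 12.01 and 11.91 at E19.5 and 12.32 on all 3 young adult arrays, a difference of 0.35 that did not pass the limits. For troponin the balance moved almost wholly by loss of the fetal form. The smaller shifts were Cox8b over Cox8a (0.90), Ckm over Ckb (0.55), Pgam2 over Pgam1 (0.53), Eno3 over Eno1 (0.17), Cox7a1 over Cox7a2 (0.17) and Slc25a4 over Slc25a5 (0.12), and the stages overlapped in the last 4 of these. From E18.5 to the old adult the shifts of Eno3 over Eno1, Cox7a1 over Cox7a2 and Slc25a4 over Slc25a5 turned, to -0.091, -1.425 and -0.42.

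The light chains of myosin gave ratios of the other sign. The ventricular over the atrial form, Myl2 over Myl7 and Myl3 over Myl4, fell by 0.99 and 0.71 with no overlap between stages. With the control difference as a covariate the shifts were -0.65 and -0.08, and from E18.5 to the old adult they were -0.65 and 0.24, so the direction for Myl3 over Myl4 turned there. None of these 4 genes passed the limits singly. Markers of atrial muscle moved with them: the summed level of the 9 markers, which include Myl7 and Myl4, was 11.76 to 12.92 at E19.5 and 12.97 to 13.40 in the young adult. Sln, sarcolipin of the atrial calcium pump, was 7.97, 6.35 and 5.99 at E19.5 and 9.41, 9.83 and 9.50 in the young adult, and Stard10 rose by 1.25; with the control difference as a covariate neither was called. The part of atrial tissue in these values was not tested.

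**Figure D3:**
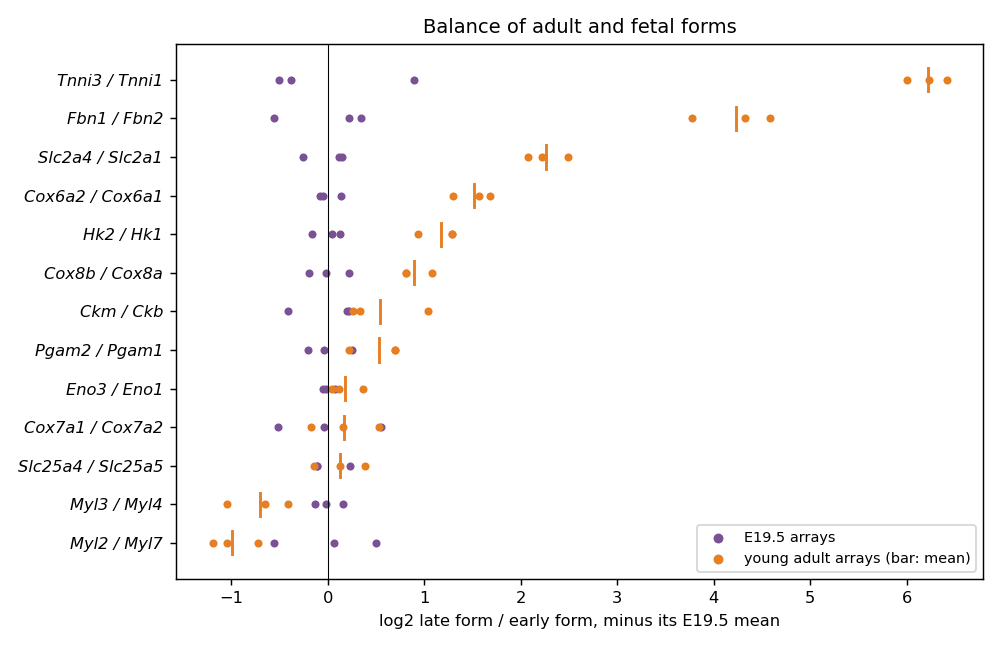
Balance of the late over the early form of 13 proteins on each array, as a log2 ratio minus its mean at E19.5. Troponin I and fibrillin shift by 6.22 and 4.23, 7 of the 11 positive shifts have no overlap between stages, and the 2 myosin light chain pairs shift below 0.

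Channels, pumps and calcium handling proteins changed in both directions. Of 54 measured 9 rose and 13 fell, a share of 24.1% lower against 5.37% of all genes and 16.7% higher against 4.03%, with a median of 0.015, and with the covariate 7 rose and 12 fell. Kcne1, the beta subunit of the slow delayed rectifier current, was 8.51, 8.42 and 7.60 at E19.5 and 4.41, 3.25 and 4.11 in the young adult (log2 -4.25, SE 0.38, adjusted p = 2.3e-10). The T-type calcium channel Cacna1h fell by 2.48 and the sodium-calcium exchanger Slc8a1 by 2.36. On the rising side Scn7a, a sodium channel that senses extracellular sodium, gained 2.22. For Slc8a1 the other 3 probe sets lay between -1.26 and -0.04.

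Genes of fuel use gave smaller changes than those of cell division. Of 39 fatty acid oxidation genes 7 rose and 4 fell, with a median of 0.33. These are 17.95% and 10.26%, against 4.03% and 5.37% of all genes. Among genes with a mean above 5 the shares were 7.61% and 10.2%, so the share that fell was near that of such genes. With the arrays centred 9 rose and 2 fell, with a median of 0.52. Plin5, which coats lipid droplets beside mitochondria, was 6.61, 6.39 and 6.89 at E19.5 and 8.60, 8.08 and 8.73 in the young adult (log2 1.84, SE 0.22, adjusted p = 1e-07). Acad11, an acyl-CoA dehydrogenase, rose by 1.97 and Decr1, which handles unsaturated fatty acids, by 1.48. The 4 that fell were Acot2, a mitochondrial thioesterase (-1.67), Pdk4, the kinase that shuts pyruvate dehydrogenase (-1.59), Cpt1a, the liver-type carnitine palmitoyltransferase (-1.12), and Acadl, the long-chain dehydrogenase (-1.0). With the control difference as a covariate 4 of the 39 were higher and 3 lower. Cpt1b, the muscle-type partner of Cpt1a, was not analysed here.

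Some genes of lipid use were higher at E19.5 than 1 stage earlier. Angptl4, a lipoprotein lipase inhibitor induced by fatty acids, was 8.02, 8.05 and 7.81 at E19.5 and 5.39, 4.93 and 5.32 in the young adult, a fall of 2.75. At E18.5, the stage before, it was 5.33, 5.44 and 5.22, so all E19.5 arrays lay above those of the stage before and of the adult. Pdk4, Acot2, Cpt1a and Plin5 likewise had means at E18.5 (6.02, 7.85, 7.65 and 4.29) under those at E19.5 (8.30, 9.58, 8.70 and 6.63). For all 5 genes the change from E19.5 to the young adult therefore differed from that of E18.5 to the old adult, tested as the difference of both contrasts in limma: adjusted p = 1.9e-07 for Angptl4, 0.0023 for Pdk4, 0.0015 for Acot2, 0.0022 for Cpt1a and 0.00029 for Plin5. For Pdk4 the sign turned, from -1.59 to 1.03, and for all 5 the adjusted p stayed under 0.05 when any 1 of the 12 arrays of both contrasts was left out.

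Some genes of glucose use were lower. Of 45 genes of glycolysis, glucose and lactate transport and glycogen, 7 fell and 1 rose, a share of 15.6% lower against 5.37% of all genes and 10.2% of those with a mean above 5, with a median of -0.19 that was -0.008 with the arrays centred. Slc2a1, the GLUT1 transporter that predominates in the fetal heart, was 9.38, 9.01 and 9.23 at E19.5 and 7.33, 7.41 and 7.25 in the young adult, 3.67-fold lower (adjusted p = 9.6e-11). Slc16a4, a monocarboxylate transporter, fell by 2.54, Aldoc, a brain-type aldolase, by 2.12, Pfkp, platelet-type phosphofructokinase, by 1.72 and Hk1, the hexokinase of fetal and most other tissues, by 1.31. Slc2a4, the insulin-responsive GLUT4, differed by 0.38, below the limits. Tpi1, the 1 gene that rose, gained 1.25, and its E19.5 mixed array was 7.77 against 9.62 and 9.64; it was no longer called with the covariate. Pygl, glycogen phosphorylase of liver type, fell by 1.51 although its stages overlapped.

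The respiratory chain gave few calls, and their number depended on the scaling. Of 83 respiratory chain genes 3 rose and 2 fell, 3.61% and 2.41%, which is near or under the shares of all genes, and the median was 0.25. With the arrays centred 10 rose and none fell, with a median of 0.43. The 3 that rose were Ndufa4 by 1.54, Cox5a by 1.12 and Atp5g2 by 1.07, and none was called with the control difference as a covariate. Those that fell were Cox6a1 (-1.14), the ubiquitous form of its subunit, and Ndufs1 (-1.01). Of 23 genes of pyruvate entry and the citric acid cycle nearly all stayed within the limits, and the pyruvate carrier Mpc1, which rose by 1.98, was not called with the covariate. Energy transfer was carried by single genes: Ckmt2, the mitochondrial creatine kinase of heart, was 9.58, 9.27 and 8.47 at E19.5 and 11.33, 11.12 and 11.47 in the young adult, and Mb, myoglobin, rose by 1.98. In all 4 of 31 genes of that list rose and 1 fell, 12.9% and 3.23% against 4.03% and 5.37% of all genes. Of 25 genes of ketone and branched-chain amino acid use, Bdh1, the first enzyme of ketone use, rose by 2.20 and Bckdha by 1.05, and none fell. The share that rose, 8.0%, was near the 7.61% of genes with a mean above 5, against 4.03% of all genes.

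The regulators of metabolism were as mixed as their targets, with 3 higher and 4 lower of 25. These were 12.0% and 16.0%, against 4.03% and 5.37% of all genes. With the control difference as a covariate 6 were higher and 4 lower. Cebpd, a transcription factor of stress and fat cell formation, rose by 3.13, with E19.5 arrays of 6.04, 5.51 and 3.87, and Klf9, a glucocorticoid-induced factor, by 1.3. Apart from Angptl4, the genes that fell were Esrrg, a nuclear receptor of oxidative genes (-1.63), Ppargc1b, a coactivator of such receptors (-1.58), and Nr4a1, an immediate early receptor (-1.41). Ppargc1b was 10.89, 10.86 and 11.59 at E19.5 and 9.40, 9.55 and 9.63 in the young adult. The clock genes stood apart from the other regulators: 7 of 19 rose, 36.8% against 4.03%, and 1 fell. Dbp, an output factor of the clock, was 6.86, 6.55 and 8.13 at E19.5 and 10.06, 9.44 and 9.80 in the young adult, and Nr1d2 (2.52), Per2 (1.82) and Per3 (1.65) rose with it. Npas2, which drives the opposite phase, fell by 2.36. The hour at which tissue was taken was not given in the sources used here, so stage and time of day cannot be told apart for these genes.

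Counts of ribosomal protein genes changed with the array controls. Of 60 cytosolic ribosomal proteins 11 rose and 3 fell, with a median of 0.51, and of 77 mitochondrial ones 7 rose and 2 fell, with a median of 0.17. The shares that rose were 18.3% and 9.09%, against 4.03% of all genes and 7.61% of those with a mean above 5. The mitochondrial share was thus near that of such genes. Those that fell were 5.0% and 2.6%, against 5.37% of all genes. With the control difference as a covariate 1 cytosolic gene and 1 mitochondrial gene were higher and the medians were 0.17 and -0.004. Without the E19.5 mixed array 4 cytosolic and 1 mitochondrial genes were higher, the lowest counts over the 6 ways to leave 1 array out, which reached 13 and 8. Rpl3l, the striated muscle partner of ribosomal protein L3, stood out from the rest: it was 2.70, 2.62 and 3.15 at E19.5 and 7.46, 6.89 and 7.29 in the young adult (log2 4.39, SE 0.17, adjusted p = 8.4e-19). Rps9 rose by 1.42, although its other probe sets gave -1.22 and 0.88. Among the genes that fell, Rps4l and Rps25 lost 2.02 and 1.81, and the direction of Rps24, -1.84, was opposite to that of its 5 other probe sets, which gained 0.88 to 1.22. In the mitochondrial list Mrps12 gained 1.78 and Mrpl49 1.22, and Mrps22 and Mrpl22 fell by 1.03 and 1.01.

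Enzymes of oxidant and drug defence were higher or did not pass the limits. Of 45 measured 15 rose and none fell, 33.3% against 4.03%, and 10 passed the study's limits. The same number was called with the covariate, and the median was 0.64. Beside Ces1d, Aldh1a1, which oxidises retinal, was 3.96, 3.80 and 4.45 at E19.5 and 8.93, 9.12 and 8.01 in the young adult. Fmo2, a flavin monooxygenase, was 6.54, 6.08 and 6.26 at E19.5 and 10.02, 10.68 and 10.20 in the young adult (log2 4.01, SE 0.23, adjusted p = 1e-14). The ethanol-metabolising Cyp2e1 and the aldehyde oxidase Aox1 gained 3.22 and 3.16. Glutathione enzymes were among the others, with Gstt1 at 2.75, Gpx1 at 2.07, Gstm1 at 1.55 and Gpx4 at 1.44.

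Genes of fat tissue moved beside the lipid and esterase genes. Of 9 adipocyte markers 4 rose: Cfd (adipsin), Adipoq (adiponectin), Slc36a2 and Retn (resistin), with 3 higher under the covariate. The 4 were 44.4% of the list, against 4.03% of all genes. Cfd was 2.80, 3.28 and 3.32 at E19.5 and 9.20, 6.19 and 7.20 in the young adult, highest on the female and lowest on the male array. Adipoq, at 6.24, 4.02 and 5.17, Retn, at 6.53, 5.07 and 5.97, and Scd1, the stearoyl-CoA desaturase, at 10.62, 8.76 and 9.69, had the same order of the female, mixed and male arrays in the young adult. The summed level of the 9 markers was 11.90 to 12.19 at E19.5 and 12.35 to 12.62 in the young adult, and Lep, leptin, was under 5 on every array. Cfd, Adipoq and Retn lay far under this sum on every young adult array, so other markers carried most of it. Fabp4, in this list, is also among the endothelial markers, so both sums share it. Brown fat markers were higher in sum, 10.13 to 10.47 and 11.05 to 11.32, with 5 of 7, Ucp1 among them, under 5 on all arrays and none called. Cox8b, also the late form of a heart subunit above, was 10.39, 10.29 and 10.05 at E19.5 and 11.0, 11.03 and 11.27 in the young adult, and it was the 1 marker of that list with a mean above 5. The part of fat around the heart in the gains of Cfd, Scd1, Thrsp and Ces1d was not tested.

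Genes of the extracellular matrix changed in both directions. The fetal-type and mature-type lists were drawn up with earlier results of these data known, so their shares are a description. Of 40 genes of fetal-type matrix 12 fell and 4 rose, 30.0% and 10.0%. Of 28 collagens 7 fell and 2 rose, 25.0% and 7.14%. Of 37 genes of mature-type matrix 17 rose and 1 fell, 45.95% and 2.70%. Over all genes 5.37% fell and 4.03% rose, and of those with a mean above 5, 10.2% and 7.61%. The share of collagens that rose was thus near that of genes with such a mean. Fbn2 was 10.21, 10.02 and 10.34 at E19.5 and 5.95, 4.38 and 5.04 in the young adult (log2 -5.07, SE 0.24, adjusted p = 2e-16). Eln, elastin, fell by 3.28, Tnc, the injury and development protein tenascin-C, by 2.51 and Lox, which cross-links collagen and elastin, by 2.47. Within the fetal-type list Fbln1, fibulin-1, and Tgfbi went the other way, by 3.29 and 1.82. With the covariate 9 of the 40 were lower and 3 higher, and of the collagens 5 were lower and 2 higher.

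Col1a1, the main chain of fibrillar collagen, was 10.04, 9.79 and 10.24 at E19.5 and 7.10, 6.36 and 6.63 in the young adult, 10.0-fold lower (SE 0.21, adjusted p = 6.6e-14). Its second probe set fell less, by 1.16. Col3a1, the partner in soft tissue, fell by 1.15, Col11a1 and Col9a1, known from cartilage, by 2.47 and 2.06, while Col8a1, a short-chain collagen of vessels, rose by 3.35 and Col4a4, of basement membranes, by 1.91. Comp, cartilage oligomeric matrix protein, which binds collagen fibrils, was 3.87, 3.54 and 3.15 at E19.5 and 8.54, 8.07 and 8.06 in the young adult, 26.0-fold higher (adjusted p = 1e-11). Prelp, a leucine-rich proteoglycan, rose by 3.95, Gsn, secreted and cellular gelsolin, by 3.94, Pcolce2, which enhances procollagen processing, by 3.87 and Timp4, a protease inhibitor of the heart, by 3.54. The fibroblast genes Lum and Dcn, both proteoglycans of collagen fibrils, gained 3.39 and 1.98, and Aspn, of the same family, fell by 1.28. Fibroblast markers overlapped in sum, 13.64 to 13.82 at E19.5 and 13.63 to 14.15 in the young adult, and the counts of mature-type genes that rose were 17 with the covariate as without it.

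Macrophage genes were higher in the young adult. Of 34 measured 19 rose and none fell, 55.9% against 4.03%, 8 of them under the study's limits, and the median was 1.38. Lyz2, the lysozyme of macrophages and neutrophils, was 5.26, 5.17 and 4.91 at E19.5 and 9.64, 9.22 and 9.51 in the young adult (log2 4.34, SE 0.21, adjusted p = 1.9e-16). Cd163, the haemoglobin scavenger receptor of tissue macrophages, rose by 2.95, and the complement C1q chains, made by macrophages, by 3.32 (C1qa), 3.13 (C1qb) and 2.62 (C1qc). Adgre1, the F4/80 antigen, and Csf1r, the macrophage growth factor receptor, rose by 1.26 and 1.43. Of 25 lymphocyte genes none was called in either direction, and the median was 0.19. Only 4 of the 25 had a mean above 5 over the arrays of both stages, against 18 of the 34 macrophage genes. Most lymphocyte genes were thus near background, so the lack of calls does not show that they were unchanged. With the covariate 18 macrophage genes were higher and again no lymphocyte gene was called.

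Antigen presentation rose with them. Of 15 genes of MHC class I and antigen processing 7 rose, and of 10 of class II 4 rose, and none fell in either list. These were 46.7% and 40.0%, against 4.03% of all genes. With the covariate 7 and 3 rose. H2-K1, a class I heavy chain, was 6.48, 6.77 and 6.48 at E19.5 and 9.58, 9.71 and 10.21 in the young adult, 9.59-fold higher (adjusted p = 2e-13). Its partner B2m rose by 3.06, and Psmb8 and Psmb9, subunits of the immunoproteasome, by 3.31 and 2.40. H2-Aa, of class II, was 2.60, 2.79 and 2.71 at E19.5 and 5.46, 4.88 and 7.0 in the young adult, and H2-Ab1, H2-Eb1 and Cd74 rose by 2.09, 1.49 and 1.34. The class I heavy chains are near-identical copies, so a probe set can read more than 1 of them. The probe sets follow the sequence of reference strains, and how OF1 alleles match them was not tested.

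Interferon-responsive genes had the largest share of raised genes of any list. Of 35 measured 21 rose and none fell, 60.0% against 4.03%, with a median of 1.32 and 19 genes higher with the covariate. Gbp2, a guanylate-binding protein, was 2.55, 2.64 and 2.84 at E19.5 and 7.19, 6.90 and 7.69 in the young adult (log2 4.58, SE 0.21, adjusted p = 9.2e-17). Ly6e, a membrane protein, rose by 4.30, the GTPase Iigp1 by 3.95, Ifi27l2a by 3.5 and Ly6a, the Sca-1 antigen, which also marks vessels and progenitors, by 3.00. Iigp1 was higher on the young adult mixed array, 10.17, than on the female and male arrays, 8.29 and 8.88. The Gbp, Ifit and Irgm families hold similar copies, and their members may share signal.

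Promoter windows of 2 genes of this list are shown because this list had the largest share of raised genes and its windows can be read for the letters that interferon regulatory factors (IRF) and STAT proteins are known to bind. The IRF letters AANNGAAA, read on both strands, were in 12 of the 15 raised genes with a window, 80.0%, in 17 of the 25 measured with a window, 68.0%, and in 19.6% of all windows. The gamma-activated sequence (GAS), TTCNNNGAA, was in 7 of the 15, 46.7%, against 7.27%. Ifit1, which binds foreign RNA, and Irgm2, a GTPase of the defence against parasites, rose by 2.64 and 2.53 and were chosen after their values were seen. Capitals mark AANNGAAA, and TTCNNNGAA in Irgm2, on either strand; overlapping matches run together.
Ifit1, chr19:34640639-34640938, plus strand: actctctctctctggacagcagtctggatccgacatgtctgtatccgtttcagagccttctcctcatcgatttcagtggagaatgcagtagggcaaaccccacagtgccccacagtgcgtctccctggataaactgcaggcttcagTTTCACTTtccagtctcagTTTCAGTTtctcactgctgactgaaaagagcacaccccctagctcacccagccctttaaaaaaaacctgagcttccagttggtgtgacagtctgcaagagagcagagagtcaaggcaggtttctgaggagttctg
Irgm2, chr11:58214727-58215026, plus strand: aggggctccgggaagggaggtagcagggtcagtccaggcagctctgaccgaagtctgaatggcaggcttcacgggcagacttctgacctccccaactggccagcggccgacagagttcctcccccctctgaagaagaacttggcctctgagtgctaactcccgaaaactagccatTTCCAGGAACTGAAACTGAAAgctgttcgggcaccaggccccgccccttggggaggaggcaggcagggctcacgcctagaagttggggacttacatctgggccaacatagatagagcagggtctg
Each holds 2 IRF matches, and Irgm2 holds 1 GAS match as well. Of the 66 respiratory chain genes with a window, a list with few called members, 8 held the estrogen-related receptor half-site AAGGTCA, 12.1% against 3.83%, and 7 held the NRF1 core CGCATGCG, 10.6% against 3.04%.

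Complement genes rose in 10 of 20, and 9 of these passed the study's limits. C3, the central component, was 5.68, 5.61 and 4.67 at E19.5 and 9.60, 8.91 and 8.09 in the young adult (log2 3.55, SE 0.29, adjusted p = 4.1e-11). Serping1, the inhibitor of C1, rose by 3.48, so a component and an inhibitor of the cascade were both higher. Cfd, the protease of the alternative pathway, is counted here and among the adipocyte markers, and the C1q chains are counted here and among the macrophage genes. None of the 20 fell, and 10 rose with the covariate as well.

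Markers of vessel, epicardial, erythroid and nerve cells changed in both directions, with few genes called in each list. Endothelial markers were higher in sum, 12.60 to 13.06 at E19.5 and 13.42 to 13.59 in the young adult, and 4 of 17 rose: Aqp1, a water channel of capillaries, by 3.88, Emcn by 1.8, Vwf by 1.68 and Pecam1 by 1.5. Aqp1 was 7.22, 7.59 and 6.26 at E19.5 and 10.93, 10.86 and 10.90 in the young adult. Of 9 smooth muscle markers 3 rose, Tagln by 2.71, Myh11 by 2.04 and Lmod1 by 1.31, whereas the summed level of the 9 was lower, 12.41 to 12.73 and 11.97 to 12.29. The shares that rose were 23.5% of endothelial and 33.3% of smooth muscle markers, against 4.03% of all genes and 7.61% of those with a mean above 5. Acta2, smooth muscle actin, which carried most of the sum, was 12.20, 12.07 and 12.55 at E19.5 and 11.53, 11.04 and 11.35 in the young adult. Of 12 epicardial and mesothelial markers Tbx18, Wt1 and Aldh1a2 fell, by 2.01, 1.70 and 1.07, with overlapping sums. Of 15 erythroid markers Ahsp and Tfrc fell, by 1.66 and 1.29, and the sum went from 8.77 to 8.98 at E19.5 to 8.12 to 8.69 in the young adult. Of 12 nerve and glia markers S100b rose by 1.23, 8.33% of that list. Of 11 lung and thymus markers, which could enter with the dissection, Cd1d1 and Ager fell by 1.55 and 1.54. In that list 8 of the 11 were under 5 on all 6 arrays. The shares that fell were 25.0% of epicardial, 13.3% of erythroid and 18.2% of lung and thymus markers, against 5.37% of all genes.

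**Figure D4:**
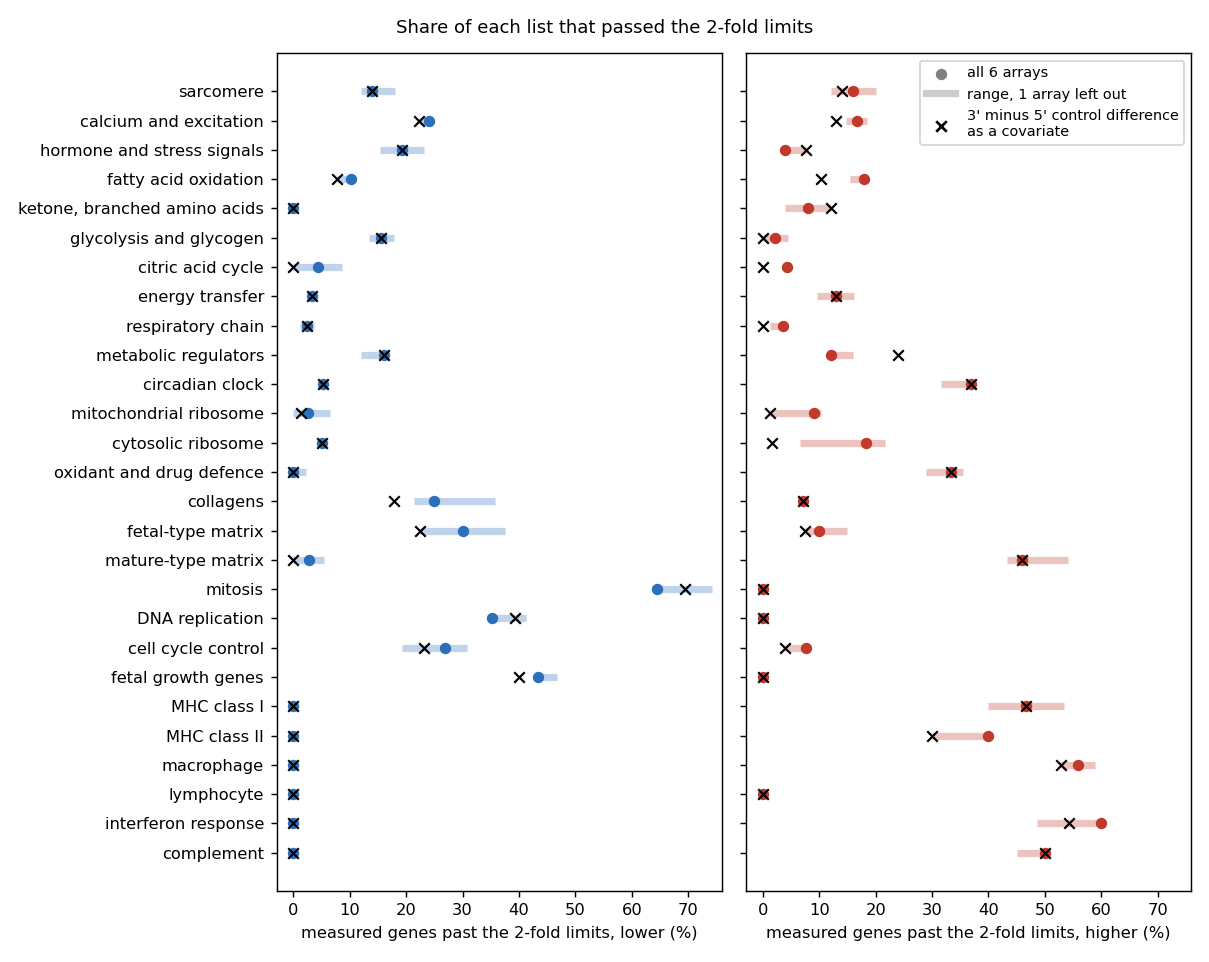
Share of the measured genes of each list that passed the 2-fold limits, lower in the left panel and higher in the right, with all 6 arrays (circle), over the 6 ways to leave out 1 array (band) and with the 3′ minus 5′ control difference as a covariate (cross). The cross lies near the circle for mitosis (43 against 40 genes) and complement (10 in both), and far below it for the cytosolic ribosome (1 against 11 genes).

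The same step could be read in arrays that the comparison did not use, from E18.5 to the old adult, whose age is 14 months in the series' design text and another in the methods. Both comparisons rest on fetal arrays with a high and adult arrays with a low control difference (Gapdh 4.1 to 4.34 at E18.5 and 2.06 to 2.63 in the old adult), so they share that difference. Of the 835 genes that rose to the young adult 829 had the same sign from E18.5 to the old adult and 716 passed the 2-fold limits there as well, and none passed them in the opposite direction. Of the 1112 that fell 1093 had the same sign, 798 passed, and 2 passed in the opposite direction. The median of the raised genes was 1.42 to the young adult and 1.95 from E18.5 to the old adult, and that of the lowered genes -1.39 and -1.44. Over all genes the medians were 0.058 and 0.0. The share of all genes with the same sign in both comparisons is not given here, so the counts above have no baseline. By list, the medians were -1.77 and -2.35 for mitosis, -0.89 and -0.99 for DNA replication, 1.38 and 1.97 for macrophage genes, 1.32 and 2.19 for interferon-responsive genes, 1.49 and 1.82 for complement and 1.15 and 1.69 for mature-type matrix. The sarcomere list went from -0.08 to 0.23, and the ratio of the late to the early form rose in 9 of the 13 pairs.

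The fetal stages before E19.5 placed the step in time. The mitosis list had its median 1.35 above E19.5 at E10.5 and 0.25 above it at E18.5, so it declined through fetal life before its drop of 1.77 to the young adult. The macrophage list was -0.92 at E10.5 and -0.09 at E18.5 relative to E19.5, and the fatty acid oxidation list was -0.67 at E18.5, after which it rose at E19.5 and by a further 0.33 to the young adult. These medians share the E19.5 arrays and are given as a description.

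**Figure D5:**
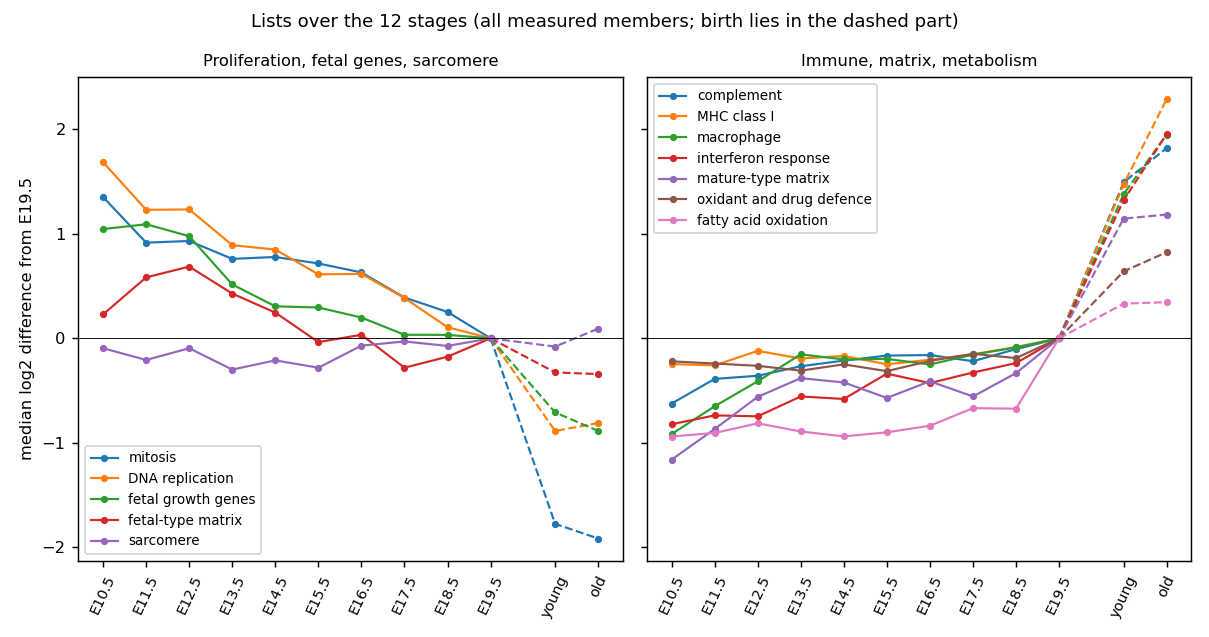
Median over all measured genes of a list of the log2 difference from E19.5 at each of the 12 stages, 3 arrays a stage; stages are evenly spaced and not to scale in time, and the dashed part spans birth. The mitosis and replication lists fall through fetal life and again after it, and the complement, MHC class I, macrophage and interferon lists lie below 0 before E19.5 and above 1 in both adult stages.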

How the data were processed

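RNA of whole hearts was labelled and hybridised to Affymetrix Mouse430 2.0 arrays, 3 arrays at each of 12 stages. Per the labels, the authors normalised the arrays by RMA, with Affymetrix Expression Console and Partek 6.6 named in the submitters' processing notes, and deposited log2 values of 45101 probe sets for all 36 arrays. RMA brings the distributions of the arrays close to each other, so a change shared by most genes could be hidden, and low values are compressed. The deposited distributions still differed somewhat. Array medians lay between 4.00 and 4.20, and making the distributions equal gave 1054 higher and 1011 lower genes under the 2-fold limits, in place of 835 and 1112. Read depth does not apply to arrays, and 3 arrays a stage limit the precision.

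From these values 12 stage means were fitted on 36 arrays with limma 3.58.1 in R 4.3.3 (residual degrees of freedom 24, prior 6.96), without a block, and p-values were adjusted by the Benjamini-Hochberg method over all 45101 probe sets. The contrasts were young adult minus E19.5, old adult minus E18.5, and the difference of both. Limits on level, fold change and adjusted p are stated with the counts, and the study's limits follow the authors' methods. Each of 20701 genes was read from 1 probe set, the brightest over the 6 arrays, with those that match several sequences used only where no other was held; 6937 probe sets have no gene identifier and name no gene here. Symbols come from RefSeq, assembly GRCm38.p6, which held 18342 of the gene identifiers, and the file's own symbol stands otherwise. Promoter windows come from the same RefSeq table.

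The members and gene lists were chosen with earlier results of these data known, so no p-value was computed over a list. Genes named are the 12 highest and 12 lowest past the study's limits, up to 5 of each list by size of change among those past the 2-fold limits, up to 2 of each list against its majority, and both forms of each isoform pair; a few others were named after their values were seen. Some genes the rule names, and 1 isoform pair, are not reported here. Lists of 13 other cell or tissue types served as markers, each summed on the linear scale on each array and returned to log2. The code was tested on simulated data. Alternatives covered the scaling, the filter, the model, the probe set of a gene and each array left out. A fit with the mean 3′ minus 5′ difference of the Gapdh and Actb controls as a covariate, and a count of genes with any probe set past the limits, were chosen after seeing the data.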

Additional observations from a re-analysis of the deposited data

Results flagged for a closer look

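For 616 genes the change from E18.5 to the old adult differed from that from E19.5 to the young adult (limma, adjusted p under 0.05 for the difference of both contrasts). The number rested on single arrays: without the E19.5 male array it was 220 and without the E19.5 mixed array 1266. Beside Angptl4, Pdk4, Acot2, Cpt1a and Plin5, whose E18.5 and E19.5 levels are given above, named genes with a difference that stayed under 0.05 whichever of the 12 arrays was left out were of several kinds. The fall to the old adult was deeper for Col1a1 (-3.33 and -5.11, adjusted p = 0.0012), Fbn2 (-5.07 and -6.91, 0.0032), Chek1 (-2.16 and -3.33, 0.002) and Erbb2 (-1.36 and -2.15, 0.012). The gain was larger for C3 (3.55 and 5.60, 0.0063), H2-K1 (3.26 and 4.66, 0.009), Ly6e (4.30 and 6.09, 0.01) and Vwf (1.68 and 3.47, 0.0072). Wt1, a gene of the epicardium, fell by 1.70 to the young adult and differed by 0.20 in the other contrast (0.0051). For Ect2, Emcn, Gbp2, Ly6a, Npas2, Ryr2, Slc2a1 and Tcap the difference was lost, in limma, when 1 array or another was left out, with a highest adjusted p between 0.05 (Gbp2) and 0.16 (Tcap).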

How the results depend on the processing

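Of 3534 values of 186 named genes under the alternatives, 3362 kept their direction and their side of the limits, 143 lost the call, 5 gained one and 24 changed sign. Of 1520 counts in lists 1364 stayed within 1.5 times, and 734 of 760 list medians kept their sign. Stages of 3 arrays and values near background limit what can be called, and the covariate of the control difference and the count by any probe set (213 higher and 266 lower under the study's limits, 1038 and 1563 under the 2-fold limits) were added after seeing the data. The cause of the changes below was not tested.

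Under the study's limits 83 genes were higher and 86 lower with a fit of both stages alone, where fewer arrays estimate the spread, 108 and 104 with the control difference as a covariate, and 449 and 761 with a 2-fold in place of the 4-fold limit. Averaging the probe sets of a gene left 94 lower genes under the study's limits and 681 under the 2-fold limits, and 1233 in place of 1922 genes with the same direction from E18.5 to the old adult. The adjusted p alone, with no fold limit, gave 1941 higher and 2801 lower. With 1 array left out the counts ranged from 140 to 176 higher and 160 to 205 lower under the study's limits, and from 683 to 951 and 998 to 1273 under the 2-fold limits, the lowest of the higher counts being without the E19.5 mixed array. The 616 genes that differed between both contrasts ranged from 220 to 1266, being 306, 220 and 1266 without the E19.5 female, male and mixed arrays and 926, 318 and 334 without those of E18.5.

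The sex label was tried as a replicate block, although the labels do not say that it pairs arrays of different stages: deviations from the stage mean correlated by 0.208 for the female, 0.022 for the male and 0.0753 for the mixed arrays. Under the study's limits the replicate block on 6 arrays gave 110 higher and 114 lower, and on 36 arrays 174 and 182.

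The changes of sign concerned small or probe-dependent changes. With the arrays centred Slc25a5 was 0.130, Cox8a 0.145, Eno3 0.123 and Hk2 0.038. With the brightest probe set over 36 arrays Rps24 was 0.881 and Thrsp -0.029, so the gain of Thrsp rests on its choice of probe set. With the mean of a gene's probe sets Slc25a4 was -0.178, Ckm -0.004 and Rps24 0.628. With the covariate Slc25a4 was -0.163, Myl4 -0.009 and Myl3 -0.092. With 1 array left out the change ranged from -0.305 to 0.084 for Slc25a5, from -0.244 to 0.082 for Cox8a, from -0.244 to 0.054 for Eno3, from -0.195 to 0.157 for Myl3, from -0.069 to 0.143 for Slc25a4, from -0.292 to 0.437 for Ckm and from -0.104 to 0.164 for Pgam2.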
